A study of Canis lupus familiaris with 34 samples.

Results

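The nitric oxide and arginine genes of the canine mitral valve were described here as a set of 10 genes, ASS1, ASL, ARG1, ARG2, NOS1, NOS2, NOS3, DDAH1, DDAH2 and GUCY1A1, out of 23768 features in the deposited count table. A gene was taken by its symbol, and where a canine RefSeq feature and a human XenoRefSeq feature of the same symbol were both listed, the canine one was used. All 10 genes were listed and all 10 passed the minimum sum of 100 counts over the dogs. The valves came from 34 privately owned Cavalier King Charles Spaniels of about 10 years of age. Of these, 19 dogs (10 females and 9 males) had not developed congestive heart failure (10y-noCHF), and 15 dogs (6 females and 9 males) had heart failure from myxomatous disease of this valve (10y-MMVD-CHF). The 10y-noCHF group was not a group of healthy valves, since the methods place most of its dogs in preclinical stages of the same disease, and the stage of a single dog is not given with the labels. The diagnosis of heart failure rested in part on how a dog responded to diuretics, so drug treatment and heart failure cannot be told apart, and all dogs were sedated before euthanasia. Each sample was excised mitral valve tissue of 1 dog, and in such bulk tissue fewer cells of a type and less RNA per cell cannot be told apart.

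Nitric oxide is made from arginine by the nitric oxide synthases, of which NOS3 is the endothelial, NOS1 the neuronal and NOS2 the inducible enzyme. ASS1 joins citrulline and aspartate into argininosuccinate, ASL splits this into arginine and fumarate, and the pair thereby recycles the citrulline that the synthases release. The arginases ARG1 and ARG2 use the same arginine to make ornithine and urea, DDAH1 and DDAH2 are the dimethylarginine dimethylaminohydrolases, of which DDAH1 degrades methylarginines that inhibit the synthases, and GUCY1A1 is a subunit of soluble guanylyl cyclase, the receptor for nitric oxide, which makes cGMP. In valves and vessels NOS3 is best known from the endothelium that lines the leaflet.

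The 2 kinds of features were not counted over the same part of a gene. The canine features, used for ARG2, NOS1, NOS2, NOS3 and GUCY1A1, hold exons only. Of the human XenoRefSeq features, 94.6% cover a gene's whole span in 1 piece, introns included, and ASS1, ASL, ARG1, DDAH1 and DDAH2 were measured on such spans. Levels were therefore compared between genes per length only within the exon features. On canFam4 (UU_Cfam_GSD_1.0), with coordinates as the table gives them, ASS1 spanned chr9:53512954-53565699 on the minus strand, and ASL spanned chr6:682401-692771 on the minus strand. ARG1 lay at chr12:384903-397525 (minus) and DDAH2 at chr12:1345701-1348952 (minus). DDAH1 lay at chr6:62991966-63228763 (plus). The RefSeq gene of DDAH1 starts at 63093978, so a large part of the counted span lies before that gene. The canine features start 1 base before the RefSeq gene of the same build. They were ARG2 at chr8:41868758-41900077 (plus, 9 intervals), NOS1 at chr26:14122942-14206510 (minus, 28 intervals), NOS2 at chr9:42142974-42179774 (minus, 26 intervals), NOS3 at chr16:15781027-15799144 (plus, 26 intervals) and GUCY1A1 at chr15:53557796-53618055 (plus, 10 intervals). No other listed feature overlapped ASS1, ASL, NOS1, DDAH1, DDAH2 or GUCY1A1. RefSeq does place the lncRNA LOC119872282 within the span of DDAH1, and LOC119877053 across part of the span of GUCY1A1. Counts on the span of DDAH1 thus cannot be assigned to DDAH1 alone.

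Total counts per dog lay between 46185256 and 82361245, and no 2 libraries within a group were identical. In the comparison of 10y-MMVD-CHF with 10y-noCHF by edgeR's quasi-likelihood test with sex as a fixed effect, 23 of 19568 features passed a Benjamini-Hochberg FDR of 0.1, or 0.118% of those tested, and 6.31% had an unadjusted p below 0.05. The markers of valve interstitial cells were all detected, with a summed level of 15276 to 39870 CPM (counts scaled to a common library size after TMM normalization), as were all 14 endothelial markers, of which CLDN5 was at 0 in some dogs. CAV614 and CAV1047, both 10y-MMVD-CHF, were known from earlier results to stand apart. CAV614 had the highest means of red blood cell and of neutrophil markers and CAV1047 the highest mean of cardiomyocyte markers, and values without both dogs are given where they matter.

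ASS1, the enzyme that commits citrulline to arginine, had about double the level in the valves of dogs with heart failure, with 7.60 ± 3.83 CPM (SD, n = 15) against 3.65 ± 1.87 CPM (SD, n = 19) in the valves of the other dogs. In 10y-noCHF the lowest dog had 0.541 CPM, the median was 3.37 CPM and the highest had 6.68 CPM. In 10y-MMVD-CHF the corresponding values were 0.769, 8.57 and 13.4 CPM. The groups overlapped, but unevenly. There were 10 of 15 10y-MMVD-CHF dogs above the highest 10y-noCHF dog, and the other 5 lay inside the 10y-noCHF range, between 0.769 and 4.50 CPM. No dog of either group had a level between 6.68 and 8.04 CPM. Having at least 10 dogs of the heart failure group above every dog of the other was seen in 2 of 19568 features (0.0102%), a count chosen after the values had been seen. The 2 features were ASS1 and AP1B1P1. These levels rested on 24 to 902 counts per dog, with a median of 284.5.

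The log2 fold change of ASS1 was 1.07 (standard error, SE, 0.304, 95% interval 0.45 to 1.69), the largest of the 10 genes in size. The unadjusted p was 0.00126 and the FDR by edgeR 0.368, so ASS1 did not pass the threshold across all features. DESeq2, the tool used in the study, gave the same fold change with an FDR of 0.0886, which did pass. ASS1 was the only 1 of the 10 genes that DESeq2 called, where it called 0.327% of all features, and 0.0767% as higher. Females had 7.61 ± 3.42 CPM (SD, n = 6) against 3.83 ± 1.92 CPM (SD, n = 10), and males had 7.60 ± 4.28 CPM (SD, n = 9) against 3.46 ± 1.90 CPM (SD, n = 9). The log2 fold change was 0.99 (SE 0.449) in females and 1.13 (SE 0.423) in males, and the edgeR test of the difference between the sexes gave an unadjusted p of 0.825. The lowest dog with heart failure was CAV1047, a female whose valve had the highest cardiomyocyte marker mean of all 34 dogs. Without CAV1047 the edgeR log2 fold change was 1.18 with an FDR of 0.102. Leaving out the lowest dog with heart failure raises the value and is not separate support for it. With the cardiomyocyte marker mean as a covariate the log2 fold change was 1.17 with an FDR of 0.176. With the endothelial marker mean as a covariate it was 1.06 with an FDR of 0.370.

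**Figure D1:**
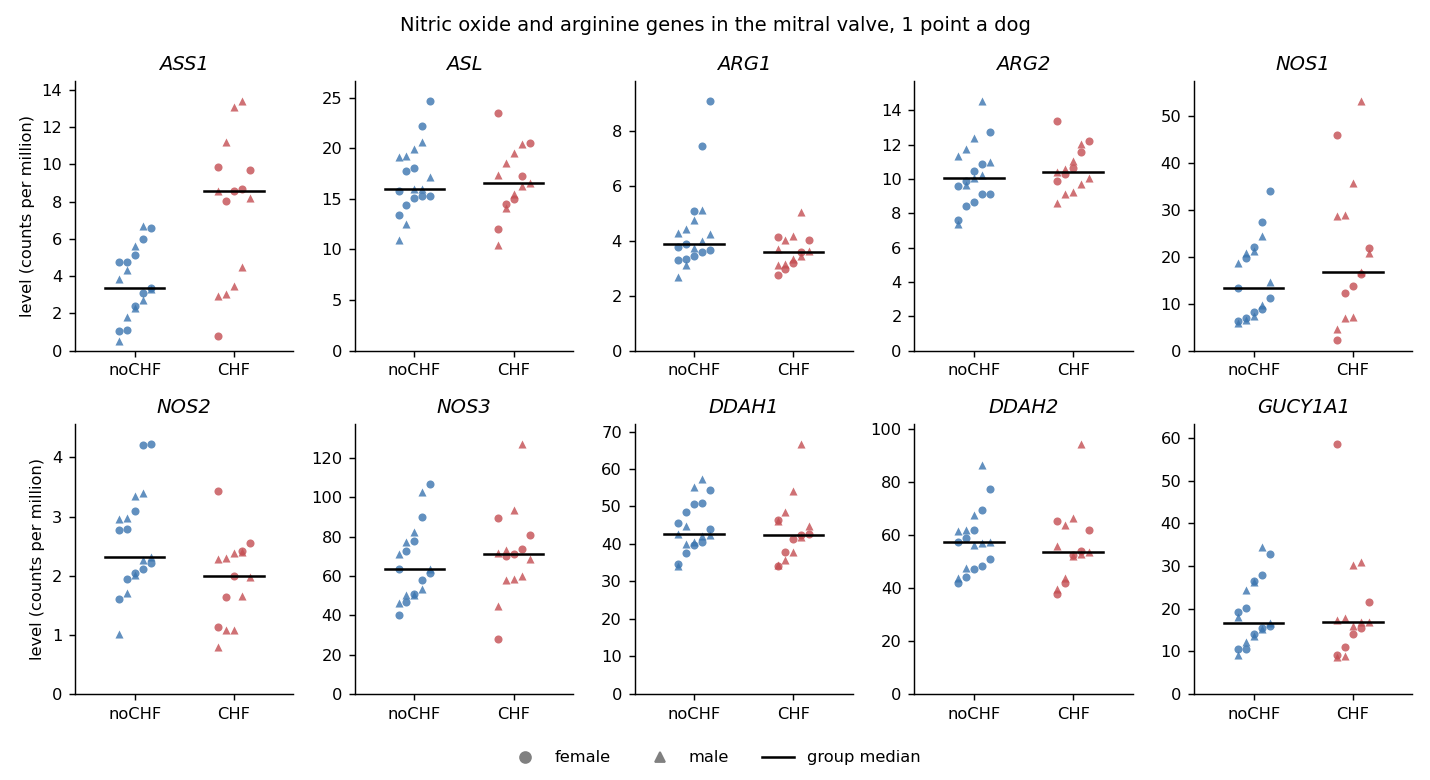
Level of each of the 10 genes in CPM (linear axes from 0, a scale of its own for each gene), with 1 point a dog, circles for females, triangles for males and a line at the group median. For ASS1, 10 of 15 dogs with heart failure lie above the highest 10y-noCHF dog at 6.68 CPM, while for each of the other 9 genes the ranges overlap and at most 3 dogs with heart failure lie above the highest 10y-noCHF dog.

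ASL, the partner of ASS1 in making arginine, did not share this pattern. It ranged from 10.95 to 24.7 CPM (median 16.01) in 10y-noCHF and from 10.47 to 23.5 CPM (median 16.6) in 10y-MMVD-CHF, and the ranges lay almost on top of each other. The means were 17.02 ± 3.40 CPM (SD, n = 19) and 16.8 ± 3.42 CPM (SD, n = 15), a log2 fold change of -0.017 (SE 0.102, 95% interval -0.23 to 0.19, FDR = 0.989 by edgeR). The sign of this value turned when some single dogs were left out. Within a dog, the log2 ratio of ASS1 to ASL, on log2(CPM + 0.5), was -1.29 ± 1.13 (SD, n = 15) with heart failure against -2.23 ± 0.88 (SD, n = 19) without. The difference of 0.94, weighted over the sexes, had a two-sided p of 0.013 (permutation test, 100000 resamples). Labels of heart failure were permuted within each sex, and the permutation p adjusted over 7 ratios was 0.0455. The ratio exceeded the 10y-noCHF median in 13 of 15 dogs with heart failure. It uses the same ASS1 counts as the fold change and is not independent of it.

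Set against the endothelium, ASS1 gave a like value. Its log2 ratio to the mean of 14 endothelial markers was -2.86 ± 0.89 (SD, n = 15) against -3.76 ± 0.88 (SD, n = 19). The difference was 0.90 (permutation p = 0.00743, adjusted p = 0.0455 over 7 ratios), and 12 of 15 dogs with heart failure were above the 10y-noCHF median. Endothelial markers themselves had a mean of 5.65 ± 0.22 and 5.64 ± 0.26 on the log2 scale in the 2 groups, with summed levels of 964 to 2080 CPM and 930 to 1820 CPM, and the difference of 0.018 had a permutation p of 0.837. With endothelial means this close, the ratio of ASS1 to them largely repeats the difference of ASS1 and is not independent of it. Without CAV614 and CAV1047 the differences were 1.25 for the ratio to ASL and 1.15 for the ratio to the endothelial mean, each with an adjusted p of 0.00213 (permutation test). Both dogs had low ASS1 for dogs with heart failure, at 4.50 and 0.769 CPM, inside the 10y-noCHF range. Leaving them out therefore raises these differences and is not separate support for them. The remaining 5 ratios had adjusted p from 0.875 to 0.933 in all 34 dogs. Among them, the ratio of NOS3 to the endothelial mean differed by 0.052 (permutation p = 0.665), and by 0.17 without CAV614 and CAV1047 (permutation p = 0.0654, adjusted p = 0.153).

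**Figure D2:**
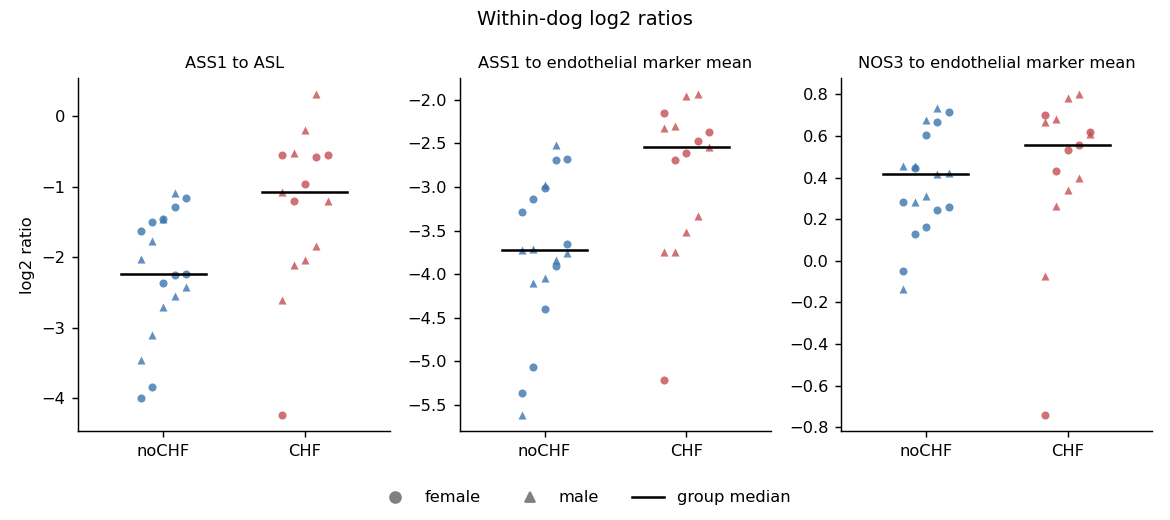
Within-dog log2 ratios of ASS1 to ASL, of ASS1 to the mean of 14 endothelial markers and of NOS3 to the same mean, on log2(CPM + 0.5), with 1 point a dog and a line at the group median. Both ratios of ASS1 have a higher median in dogs with heart failure, where CAV1047 is the lowest point at -4.24 and -5.22, and the ratio of NOS3 differs by 0.052 in the mean, or by 0.17 without CAV614 and CAV1047.

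The arginases compete with the synthases for arginine. ARG2, the mitochondrial arginase, ranged from 7.37 to 14.5 CPM (median 10.1) in 10y-noCHF and from 8.60 to 13.4 CPM (median 10.4) in 10y-MMVD-CHF, with a coefficient of variation of 15.2% over the 34 dogs. Its log2 fold change was 0.043 (SE 0.0794, 95% interval -0.12 to 0.20, FDR = 0.965 by edgeR). ARG1, the cytosolic arginase of the liver, ranged from 2.67 to 9.07 CPM (median 3.88) in 10y-noCHF and from 2.77 to 5.06 CPM (median 3.57) in 10y-MMVD-CHF. Only 10y-noCHF dogs, 4 of them, were above the highest dog with heart failure. The log2 fold change of ARG1 was -0.26 (SE 0.132, FDR = 0.801 by edgeR). The counts of ARG1 cannot be assigned to ARG1 alone, since 93.3% of its span is shared with MED23 on the opposite strand, the counting used no strand, and a read in both was counted on both. MED23 had 39.2 ± 3.37 CPM (SD, n = 19) and 38.2 ± 4.90 CPM (SD, n = 15). ARG2 has a smaller form of this limit, as 43.9% of its exon bases lie in the human XenoRefSeq span of VTI1B. The RefSeq gene of VTI1B starts at 41900036, near the end of ARG2 at 41900077. The exon feature of ARG2 held 26.7% of the counts of its whole span.

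Of the nitric oxide synthases, NOS3 was the most abundant per length and NOS2 the least. NOS3 ranged from 39.96 to 107 CPM (median 63.3) in 10y-noCHF and from 27.7 to 127 CPM (median 70.9) in 10y-MMVD-CHF, so that the heart failure group held both the lowest and the highest dog. Its means were 66.6 ± 19.1 CPM (SD, n = 19) and 71.2 ± 22.5 CPM (SD, n = 15), a log2 fold change of 0.092 (SE 0.149, 95% interval -0.21 to 0.40, FDR = 0.961 by edgeR). With single dogs left out it lay between 0.016 (without CAV648) and 0.17 (without CAV1047). A doubling of NOS3, as seen in the means of ASS1, is outside the interval of all 34 dogs. Of the exon bases of NOS3, 21.4% lie in the span of ATG9B on the opposite strand, and a read in both was counted on both. ATG9B differed by 0.089 (SE 0.158), much like NOS3, but with shared reads this is not a separate observation. RefSeq also places the lncRNA LOC119877096 within the span of NOS3. The counts of NOS3 thus cannot be assigned to NOS3 alone, and the part of shared reads in its fold change was not tested.

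NOS1, the neuronal synthase, was the most variable of the 10 genes, with a coefficient of variation of 67.3% over all dogs. It ranged from 5.99 to 34.03 CPM (median 13.3) in 10y-noCHF and from 2.31 to 53.2 CPM (median 16.7) in 10y-MMVD-CHF. There were 3 dogs with heart failure above the highest 10y-noCHF dog and 2 below the lowest one, so the heart failure group was the wider at both ends. The log2 fold change of 0.47 (SE 0.329, 95% interval -0.20 to 1.14, FDR = 0.866 by edgeR) has an interval that holds both no change and a doubling. It was 0.28 without the single dog CAV1259 and 0.32 (SE 0.302) on the whole-span feature of NOS1.

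NOS2, the inducible synthase, ranged from 1.01 to 4.22 CPM (median 2.32) in 10y-noCHF and from 0.79 to 3.43 CPM (median 1.996) in 10y-MMVD-CHF. It lay below the 10y-noCHF median in 10 of 15 dogs with heart failure. Its log2 fold change was -0.39 (SE 0.182, unadjusted p = 0.0381, FDR = 0.778 by edgeR), and the whole-span feature of NOS2 gave -0.45 (SE 0.175, FDR = 0.63 by edgeR). These levels rest on 44 to 351 counts per dog, and 34.5% of the exon bases are shared with the span of NOS2P3, which maps over the same place. ASS1 and NOS2 were the 2 of 10 genes with an unadjusted p below 0.05, 1 in each direction, where 6.31% of all features had one, 2.8% higher and 3.51% lower, and 0 of 10 passed the FDR threshold with edgeR.

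Per kilobase of exon, the order of the medians over 34 dogs was NOS3 with 16.8, ARG2 with 7.20, GUCY1A1 with 6.34, NOS1 with 3.58 and NOS2 with 0.569 CPM per kilobase. NOS3 was above ARG2 in 33 of 34 dogs and NOS1 was above NOS2 in 33 of 34 dogs. ARG2 was above GUCY1A1 in 21 of 34 dogs and GUCY1A1 was above NOS1 in 25 of 34 dogs, so these neighbours in the order overlapped across dogs. Of the 3 synthases summed per kilobase, NOS3 made up a median of 79.3% (64.6% to 91.3%) in 10y-noCHF and 82.8% (59.6% to 89.2%) in 10y-MMVD-CHF. NOS1 made up a median of 14.8% and 14.6%, and in no dog was it above NOS3. The exon counts of ARG2, NOS3 and NOS2 can include reads shared with VTI1B, ATG9B and NOS2P3. The part of such reads in this order and in these shares was not tested.

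The dimethylaminohydrolases overlapped closely between the groups. DDAH1 ranged from 34.05 to 57.4 CPM (median 42.6) in 10y-noCHF and from 34.1 to 66.6 CPM (median 42.4) in 10y-MMVD-CHF, a log2 fold change of -0.039 (SE 0.0828, 95% interval -0.21 to 0.13, FDR = 0.971 by edgeR). DDAH2 ranged from 41.9 to 86.6 CPM (median 57.2) and from 37.7 to 94.3 CPM (median 53.7), a log2 fold change of -0.069 (SE 0.106, 95% interval -0.28 to 0.15, FDR = 0.957 by edgeR). For both genes 1 dog with heart failure stood above all others, CAV614 for DDAH1 and CAV487 for DDAH2. The log2 ratio of DDAH1 to DDAH2 differed by 0.034 between the groups (permutation p = 0.765).

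GUCY1A1, the alpha subunit of the nitric oxide receptor, ranged from 9.06 to 34.5 CPM (median 16.5) in 10y-noCHF and from 8.55 to 58.5 CPM (median 16.8) in 10y-MMVD-CHF. The highest dog was CAV1047. Its log2 fold change was 0.042 (SE 0.228, 95% interval -0.42 to 0.51, FDR = 0.989 by edgeR), and without CAV1047 it was -0.22. The whole-span feature gave -0.038, so no direction can be given. The log2 ratio of GUCY1A1 to GUCY1B1, the beta subunit with which it pairs, was -1.10 ± 0.73 (SD, n = 15) against -0.94 ± 0.45 (SD, n = 19), a difference of -0.17 (permutation p = 0.43).

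The other genes of the pathway were taken as 5 lists with 82 symbols, of which 79 were listed and 77 tested. By edgeR 0 of 77 passed the FDR threshold, as by DESeq2, and 8 had an unadjusted p below 0.05, 3 higher and 5 lower in 10y-MMVD-CHF, or 10.4% of the 77 against 6.31% of all features. The median log2 fold change over the 77 genes was -0.011 and over all features 0.0076.

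Among 16 genes of soluble guanylyl cyclase and cGMP signalling, KCNMA1, the large-conductance potassium channel that cGMP-dependent kinase activates, had 4.27 ± 1.69 CPM (SD, n = 15) with heart failure against 6.40 ± 2.77 CPM (SD, n = 19) without. It was below the 10y-noCHF median in 13 of 15 dogs with heart failure, with a log2 fold change of -0.58 (SE 0.214, unadjusted p = 0.0103, FDR = 0.607 by edgeR). IRAG1, a substrate of the same kinase, had a log2 fold change of 0.21 (FDR = 0.779 by edgeR). The most abundant gene of the list in CPM, PDE3A, a phosphodiesterase inhibited by cGMP, had a log2 fold change of 0.16 (SE 0.198). Ranks by CPM, in this list and those below, are not per length, and a list can hold both kinds of features.

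Among 19 regulators of the synthases, CAV1, the caveolin that holds NOS3 inactive, had 44.8 ± 10.2 CPM (SD, n = 15) against 58.2 ± 19.9 CPM (SD, n = 19). It was below the 10y-noCHF median in 13 of 15 dogs with heart failure, with a log2 fold change of -0.38 (SE 0.138, unadjusted p = 0.00924, FDR = 0.592 by edgeR). KLF4, a transcription factor of the endothelium among other cells, had a log2 fold change of -0.26 (unadjusted p = 0.0221, FDR = 0.696 by edgeR). HSP90AA1, the most abundant of the list in CPM and a chaperone that NOS3 binds, differed by 0.064 (SE 0.102).

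Tetrahydrobiopterin is the cofactor that couples the synthases, and 7 of its genes were tested. GCHFR, the feedback regulator of GTP cyclohydrolase, had a log2 fold change of 0.28 (SE 0.125, FDR = 0.753 by edgeR), and SPR, the reductase of the last step, had -0.14 (SE 0.0642, FDR = 0.778 by edgeR). AKR1B1, the most abundant of these in CPM, had -0.12 (SE 0.178). Among 26 genes of arginine transport and metabolism, GATM, which uses arginine for creatine synthesis, had 0.457 ± 0.285 CPM (SD, n = 15) against 0.816 ± 0.594 CPM (SD, n = 19) and was below the 10y-noCHF median in 14 of 15 dogs with heart failure. Its log2 fold change was -0.89 (SE 0.413, unadjusted p = 0.0378, FDR = 0.776 by edgeR). SLC3A2, the heavy chain of amino acid transporters, differed by 0.13 (SE 0.0758), and GLUD1, glutamate dehydrogenase, by -0.05 (SE 0.0537).

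Among 9 tested genes that place or handle methyl groups on arginine, PRMT3, an arginine methyltransferase, had a log2 fold change of 0.14 (SE 0.0555, unadjusted p = 0.0151, FDR = 0.631 by edgeR) and exceeded the 10y-noCHF median in 12 of 15 dogs with heart failure. PRMT1, the most abundant of the list in CPM, differed by 0.014 (SE 0.059), and PRMT8 by -0.69 (SE 0.564) at 0.205 and 0.324 CPM.

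**Figure D3:**
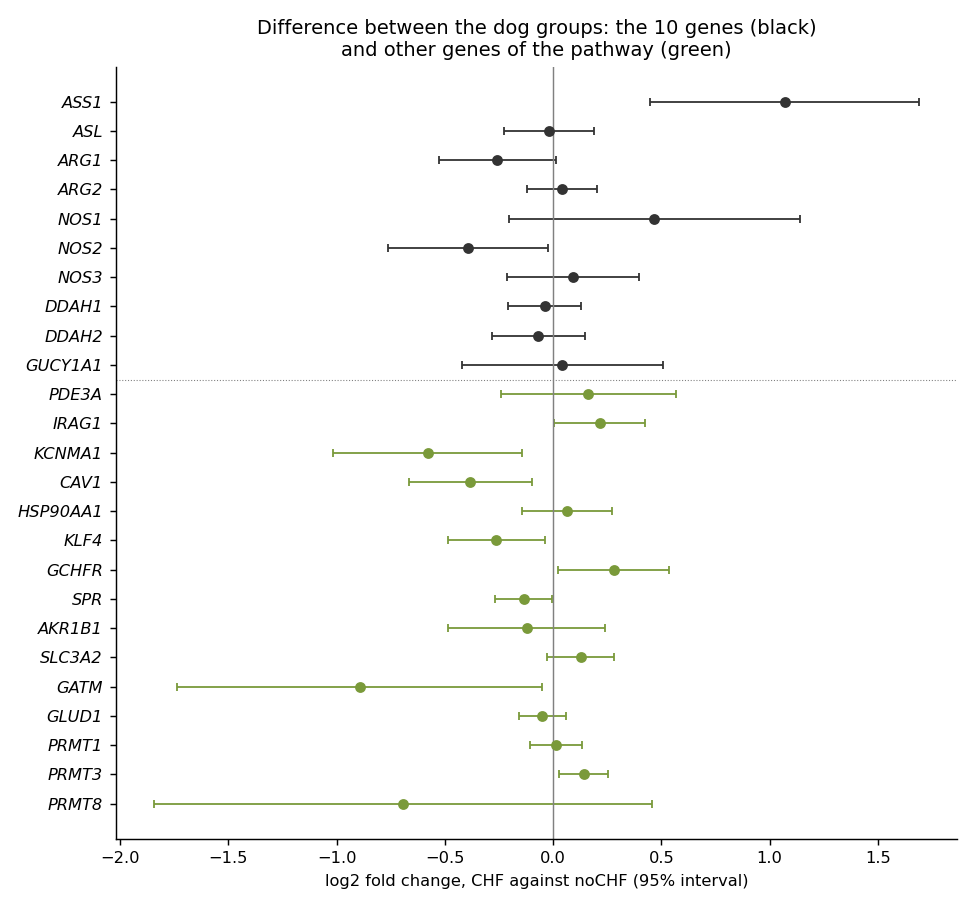
Log2 fold change of 10y-MMVD-CHF against 10y-noCHF with its approximate 95% interval from the edgeR fit, for the 10 genes (black) and 15 other genes of the pathway (green). The interval of ASS1, 0.45 to 1.69, is the one farthest from 0 among the black points, and no gene shown passed the edgeR FDR threshold of 0.1.

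The 10 genes were next related to cell type markers across the dogs, after the mean of each group and sex had been removed, as a measure of which cells their levels moved with. Over 50 relations, 8 had adjusted p below 0.05 for both Pearson's r and Spearman's rho (permutation tests, 100000 resamples, 34 dogs). NOS3 moved with the endothelial marker mean, with r = 0.72 and rho = 0.74 (both with a permutation p of 1e-05, the smallest these can give, adjusted 0.00025). Among dogs with heart failure r was 0.63 and among the others 0.80, and it was 0.63 when the 2 dogs with the most extreme marker means were left out. NOS2 moved the opposite way, with r = -0.54 and rho = -0.46 (permutation, adjusted p = 0.00825 and 0.0404), and r was -0.49 and -0.58 within the groups and -0.47 without the 2 farthest dogs. For NOS2 the adjusted p of rho was 0.0813 without CAV614 and CAV1047 (permutation test), so the relation did not hold in both measures without those dogs.

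GUCY1A1 moved with the cardiomyocyte marker mean, with r = 0.76 and rho = 0.77 (permutation p of 1e-05 for both, adjusted 0.00025), with r of 0.85 among dogs with heart failure, 0.70 among the others and 0.75 without the 2 farthest dogs. The cardiomyocyte markers differed very widely between valves. All 19 of them were tested, their summed level ran from 124 to 28015 CPM in 10y-noCHF and from 104 to 57819 CPM in 10y-MMVD-CHF, and MYL2 was at 0 in some dogs. GUCY1A1 also moved with the smooth muscle marker mean (r = 0.51, rho = 0.53, permutation tests, adjusted p = 0.0133 and 0.0211) and against the macrophage marker mean (r = -0.59, rho = -0.50, permutation, adjusted p = 0.00237 and 0.0242). Without the 2 farthest dogs r was 0.58 and -0.57. Among dogs with heart failure and among the others r was 0.59 and 0.50 with smooth muscle, and -0.50 and -0.71 with macrophages. Without CAV614 and CAV1047 the relation with macrophages had r = -0.50 over all remaining dogs. Among those with heart failure r was then 0.017 and rho -0.16, so in that group it did not hold without these dogs. The relation with smooth muscle markers was not tested apart from the one with cardiomyocyte markers. DDAH2 moved against the cardiomyocyte marker mean (r = -0.62, rho = -0.68, permutation, adjusted p = 0.0015 and 0.0005), with r of -0.66 and -0.59 within the groups and -0.61 without the 2 farthest dogs. The mean of these markers differed by 0.34 on the log2 scale between the groups (permutation p = 0.733).

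The 2 genes of arginine synthesis moved in opposite ways with macrophage markers. ASS1 moved with their mean, with r = 0.49 and rho = 0.48 (permutation, adjusted p = 0.0214 and 0.0293), with r of 0.62 with heart failure, 0.40 without it, and 0.38 without the 2 farthest dogs. ASL moved against it, with r = -0.55 and rho = -0.50 (permutation, adjusted p = 0.0081 and 0.0242), with r of -0.52 and -0.57 within the groups and -0.45 without the 2 farthest dogs. For ASS1 the relation was weaker without CAV614 and CAV1047, where r was 0.35 with an adjusted p of 0.151 (permutation test). All 12 macrophage markers were above 0 in every dog, with summed levels of 756 to 2041 CPM with heart failure and 611 to 2128 CPM without. Their mean was 0.26 higher on the log2 scale in 10y-MMVD-CHF (permutation p = 0.0938, adjusted p = 0.844 over 9 lists). The part of this mean in the difference of ASS1 was not tested. ASS1 had r = 0.036 with the endothelial marker mean (permutation p = 0.84, adjusted p = 0.949), and rho was -0.021 (permutation p = 0.905, adjusted p = 0.952). Among dogs with heart failure r was 0.39 and among the others -0.24. With the cardiomyocyte marker mean ASS1 had r = -0.41 and rho = -0.39 (permutation tests, adjusted p = 0.0677 and 0.1). There r was -0.21 among dogs with heart failure and -0.60 among the others.

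**Figure D4:**
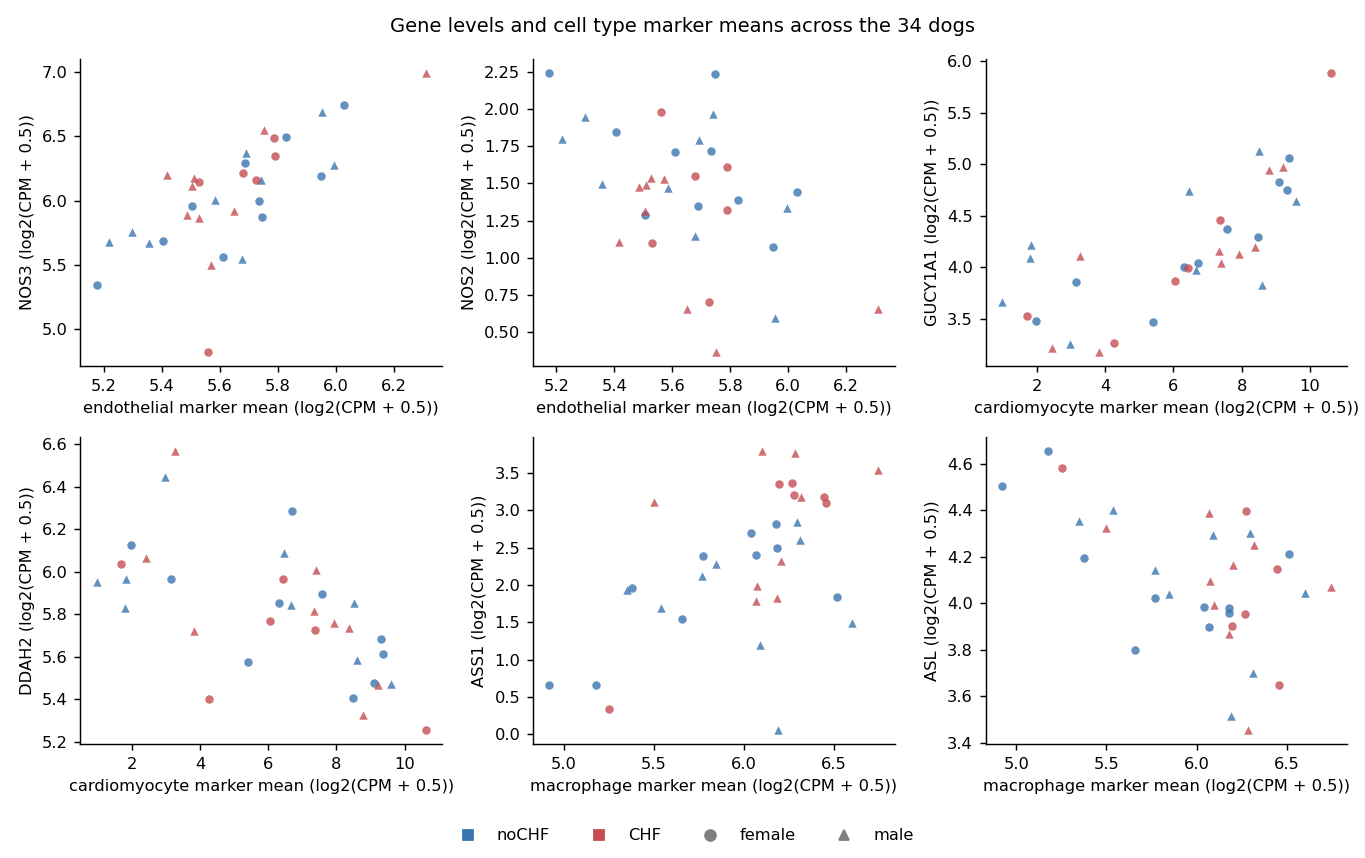
Level of 6 genes against a cell type marker mean, both on log2(CPM + 0.5), with 1 point a dog, blue for 10y-noCHF, red for 10y-MMVD-CHF, circles for females and triangles for males. NOS3 follows the endothelial mean and GUCY1A1 the cardiomyocyte mean in both groups, NOS2 and DDAH2 slope the other way, and ASS1 and ASL slope in opposite directions on the macrophage mean.

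As a description with no test, the genes most like a member were ranked by Spearman's rho over the 34 dogs, from residuals after the means of group and sex, among 16184 features for ASS1 and for GUCY1A1 and 16183 for NOS3 and for ARG2. All of these values come from the same libraries and share their normalization. For ASS1 they were CDH11, a cadherin of mesenchymal cells (rho = 0.77), HS3ST1, a heparan sulfate sulfotransferase (0.74), HLA-E (0.72), NPPC, the precursor of C-type natriuretic peptide (0.72), and HLA-H (0.71). HLA-E and HLA-H are class I features that can share reads. VWF, an endothelial glycoprotein with a log2 fold change of 1.404 (FDR = 0.0678 by edgeR), ranked 5668 for ASS1 with a rho of 0.13.

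NOS3 was most like CCM2L (rho = 0.90), ECSCR (0.88), CTNNAL1 (0.87), NPR1 (0.85), the receptor of atrial natriuretic peptide that makes cGMP, and RASIP1 (0.85). GUCY1A1 was most like MYOCD (0.93), a coactivator of muscle genes, ARHGAP44-AS1 (0.93), TNS1 (0.92), SGCA (0.92) and VCL (0.91), of which SGCA and VCL are part of the attachment of muscle cells. ARG2 had weaker likenesses, with C1GALT1C1 (0.70), C1GALT1C1L (0.64), GRAP2 (0.59), ARHGAP27P2 (0.56) and HNRNPC (0.52). Whether MYOCD and ARHGAP44-AS1, or C1GALT1C1 and C1GALT1C1L, share reads was not checked, so the genes of a pair may not be separate likenesses.

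Sex and the genes were compared in the same fit. None of the 10 passed the FDR threshold between males and females with edgeR or DESeq2, where edgeR called 0.143% of all features, none had an unadjusted p below 0.05 (smallest 0.239, for DDAH2), and 2.98% of all features had one. The effect of heart failure differed by sex for 1 of 10 genes at an unadjusted p below 0.05, where 6.02% of all features had one. This was ARG2, whose log2 fold change was 0.23 in females (SE 0.111) and -0.12 in males (SE 0.102), a difference of -0.35 (SE 0.151, unadjusted p = 0.0277, FDR = 0.817 by edgeR). Female dogs had 11.3 ± 1.31 CPM with heart failure (SD, n = 6) against 9.65 ± 1.45 CPM (SD, n = 10), and males had 10.1 ± 1.06 CPM (SD, n = 9) against 10.9 ± 1.99 CPM (SD, n = 9).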

How the data were processed

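Mitral valve RNA of 34 dogs was sequenced as poly-A selected paired-end libraries. The authors used STAR and canFam4 for mapping. The counts they deposited are unnormalized and come from featureCounts 2.0.3, which counted both reads of a pair, without strand and on every overlapping feature. One further count column (1 in all) belongs to no labelled sample and was not used. Features with at least 100 counts in sum (19568) were normalized with TMM and tested with edgeR 4.0.16 (quasi-likelihood, sex as fixed effect, FDR 0.1) in R 4.3.3. Alternatives used DESeq2 1.42.0 and limma 3.58.1. CPM values carry a pseudocount of 0.5 on the log2 scale. Ratios, marker means and relations used permutation tests of 100000 resamples (numpy 2.4.6). Standard errors were derived from edgeR's statistic and are approximate. The fits were tested on simulated data. The members, lists and tests were chosen with earlier results of these data known. Named genes are all 10 members, pathway genes with unadjusted p below 0.05 or with the 2 smallest p or the highest level of a list, and the 5 genes most like ASS1, NOS3, GUCY1A1 and ARG2. Each dog gave 1 sample, so p-values measure the spread between dogs. No sequences were printed because no reference sequence was used here.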

Additional observations from a re-analysis of the deposited data

Results flagged for a closer look

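In 40 groups of dogs of 1 sex and condition, 4 for each gene, a dog lay far from the others for its group's range in 4 cases, where chance alone gives about 1 in 20, or 2.0. Of these cases 3 were the same 10y-MMVD-CHF female, CAV1047. Its ASS1 level was 0.769 CPM with the next dog at 8.04 CPM, its NOS3 level was 27.7 CPM with the next at 70.4 CPM, and its GUCY1A1 level was 58.5 CPM with the next at 21.5 CPM. The dog also had the highest cardiomyocyte marker mean of all dogs, 10.6 on the log2 scale. In the male 10y-MMVD-CHF group CAV487 had 94.3 CPM of DDAH2 with the next dog at 66.4 CPM.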

How the results depend on the processing

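ASS1 kept its direction in all alternatives, between 0.99 and 1.18 when each of 34 dogs was left out, with FDR from 0.102 to 0.555, and passed the threshold only with DESeq2, at 1.07. The count of members past the threshold was 0 and became 1 with DESeq2. The count of other pathway genes was 0 throughout. Features called numbered 23, and became 64 with DESeq2, 13 without the sex term, 9 at an FDR of 0.05 and 8 (without CAV1519) to 28 (without CAV743) when single dogs were left out. ASL turned sign without some dogs, from -0.062 to 0.018. GUCY1A1 ranged from -0.22 (without CAV1047) to 0.13 with single dogs left out, and was -0.13 with limma voom, -0.12 with the cardiomyocyte covariate, -0.17 without CAV614 and CAV1047 and -0.038 on the human XenoRefSeq feature. Without CAV614 and CAV1047 the interaction of ASS1 with sex was -0.031 and the log2 ratio of DDAH1 to DDAH2 -0.032. The cause was not tested. Genes near 100 counts in sum have few counts a dog, so small differences were not detectable there. No paired analysis was possible because the groups hold different dogs, and the labels link no dog with heart failure to a dog without it.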
